A study of Mus musculus with 12 samples.

Results

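Exonic CpGs far from promoters were CpG cytosines, counted on either strand, that lay inside an exon of a protein-coding gene and more than 5000 bp from every transcription start of a protein-coding gene. The gene models were those of GENCODE vM1 on the mm9 build of the mouse genome, chromosomes were limited to the autosomes, and a position needed 10 or more reads in all 3 samples of a group. Of 415607 autosomal positions that met the read minimum in at least 1 of the 4 groups, 21540 (5.18%) were exonic and far from a start. They lay in 3673 genes and 5523 exon blocks, an exon block being a run of overlapping exons. Of these positions, 18286 were in coding sequence, 2800 in a 3′ untranslated region (UTR), 141 in a 5′ UTR and 313 in exons of other transcripts of the same genes. The group treated with DMSO contributed 3740 of them, the DBP group 6914, the group given DBP with an unnamed agent 19020 and the group given DBP with BR extract 12355.

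Methylation was measured by enhanced reduced representation bisulfite sequencing (ERRBS), which reads CpG-rich fragments cut by the enzyme MspI and scores each cytosine as methylated or not, in 12 samples of oral soft tissue. The mice were female B6C3F1/J animals, which are hybrids of a pair of inbred strains. They were 8 weeks old at the start of the study, and so older when tissue was taken after treatment. Controls received the vehicle DMSO, and the other 9 samples came from mice whose mouths were treated with DBP, or dibenzo[def,p]chrysene, a carcinogen of tobacco smoke, at 24 nmol and 3 times per week over 5 weeks. One DBP group had no further agent, another also received a chemopreventive agent with no name in the labels, and the third also received the chemopreventive agent BR extract; each group had 3 samples and mice were killed 48 h after the last dose. No group received an agent without DBP, and the labels give neither the doses of the agents nor the sequencing lane of a library. The tissue was dissected from cheek, mouth floor and palate and combined, so a methylation level averages over every cell type present, and a change in the level within cells and a change in the mix of cells cannot be told apart. The deposited files used here hold methylation only, so the tissue label was not checked against marker genes. The labels do not say that the samples of a group are separate mice. P-values refer to the spread between these samples, except in the test of single CpGs on pooled reads, which ignores it.

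Sequencing depth moved with the groups. The 6 DMSO and DBP libraries held 3287367 to 7974299 CpG calls each, and the 6 libraries with an agent held 16908728 to 78889043. At the 2052 exonic positions with 10 or more reads in all 12 samples, the median depth was 16 to 33 reads in DMSO and DBP samples and 32 to 111 in samples with an agent. Depth and treatment therefore cannot be told apart where an agent group was compared with the DBP or the DMSO group. The library of DBP with BR extract sample 1 held the most calls but had a median of only 32 reads at these positions. The 2052 shared positions (5.51% of the 37218 autosomal positions shared by all samples) lay in 686 genes and 731 exon blocks, at a median distance of 12762 bp from the nearest start, and they were used for every methylation level below unless stated.

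In mammals most CpGs inside genes carry methyl groups, which are set and copied by DNA methyltransferases and are enriched over transcribed exons. Methylated cytosines are prone to mutate to thymine, so CpGs become scarce in methylated DNA, and stretches that stay free of methylation keep many CpGs and are known as CpG islands. Most islands sit at promoters, but some lie inside exons, where the same bases also encode protein.

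Coding sequences of exon blocks at the low end, the middle and the high end of the methylation range are printed here because they carry the main contrast of these positions. Each is the mm9 reference read 5′ to 3′ along the gene's strand, and the capitals mark CpGs with 10 or more reads in all 12 samples. The blocks of Dapk3, Tbr1, Asb18 and Gprin1 were nearly free of methylation and are full of CpGs, and that of Tchh was as low with fewer. The block of Car3 was near 50%, and those of Ksr2 and Fam50b were above 95%.
Dapk3, chr10:80655171-80655271, plus strand: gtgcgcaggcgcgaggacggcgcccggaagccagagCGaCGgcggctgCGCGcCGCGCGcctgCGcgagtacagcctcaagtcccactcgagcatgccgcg
Tbr1, chr2:61650099-61650199, plus strand: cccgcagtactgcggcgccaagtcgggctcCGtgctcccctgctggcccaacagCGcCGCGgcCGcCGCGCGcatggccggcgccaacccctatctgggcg
Asb18, chr1:91865115-91865215, minus strand: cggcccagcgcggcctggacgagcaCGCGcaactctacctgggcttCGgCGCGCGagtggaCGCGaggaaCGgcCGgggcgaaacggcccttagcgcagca
Gprin1, chr13:54839430-54839530, minus strand: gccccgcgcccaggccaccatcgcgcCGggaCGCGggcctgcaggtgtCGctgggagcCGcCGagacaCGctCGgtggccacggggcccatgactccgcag
Tchh, chr3:93251422-93251522, plus strand: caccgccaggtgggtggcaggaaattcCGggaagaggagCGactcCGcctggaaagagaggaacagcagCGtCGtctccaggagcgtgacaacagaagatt
Car3, chr3:14870068-14870168, plus strand: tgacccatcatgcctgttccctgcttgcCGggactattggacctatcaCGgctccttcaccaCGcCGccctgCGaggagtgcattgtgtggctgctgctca
Ksr2, chr5:118005182-118005282, plus strand: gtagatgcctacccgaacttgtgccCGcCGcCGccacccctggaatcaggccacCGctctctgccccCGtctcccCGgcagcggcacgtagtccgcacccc
Fam50b, chr13:34838676-34838776, plus strand: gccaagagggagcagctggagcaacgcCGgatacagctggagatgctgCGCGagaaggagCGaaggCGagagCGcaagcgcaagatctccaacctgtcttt

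A further set shows single coding CpGs called as different between treated groups by a test on pooled reads, with the called CpG in capitals.
Rai1, chr11:59999725-59999786, plus strand: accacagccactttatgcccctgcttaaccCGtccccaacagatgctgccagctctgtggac
Def6, chr17:28360904-28360965, plus strand: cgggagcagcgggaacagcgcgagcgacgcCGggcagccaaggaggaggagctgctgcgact
Lrfn3, chr7:31140948-31141009, minus strand: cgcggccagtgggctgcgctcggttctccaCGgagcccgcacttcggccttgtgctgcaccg
Fosb, chr7:19890250-19890311, minus strand: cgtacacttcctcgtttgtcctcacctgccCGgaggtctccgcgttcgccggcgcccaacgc

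Exonic CpGs far from promoters were mostly methylated, and the mean level lay within a few points in all 12 samples. The mean over the shared positions was 67.1%, 66.8% and 66.9% in the 3 DMSO samples and 67.9%, 67.5% and 66.95% in the 3 DBP samples. It was 68.2%, 67.6% and 67.1% in the samples with DBP and the unnamed agent, and 68.1%, 66.4% and 66.5% in those with DBP and BR extract. The groups overlapped apart from DMSO and the unnamed agent, where the highest DMSO sample lay just below the lowest agent sample. Group means were 66.9% ± 0.145 in DMSO, 67.4% ± 0.458 in DBP, 67.7% ± 0.564 with the unnamed agent and 67.02% ± 0.957 with BR extract (the error is the SD of 3 samples).

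None of the 3 treatment comparisons of this level passed a test, and a comparison of 3 against 3 samples cannot give a two-sided exact permutation p below 0.10. DBP minus DMSO was 0.510 percentage points (exact permutation p = 0.2, 0.6 after Benjamini-Hochberg adjustment over the 3 comparisons). The unnamed agent minus DBP was 0.218 points (exact permutation p = 0.7, adjusted 0.7) and BR extract minus DBP was -0.418 points (exact permutation p = 0.6, adjusted 0.7). Without BR extract sample 1 the latter was -0.935 points (exact permutation p = 0.1, where 2 samples remained). Both agent comparisons use the same 3 DBP samples. A joint exact permutation test over the 4 groups gave p = 0.447, and p = 0.0368 when DBP with BR extract sample 1 was left out. The means also depended on the positions: over each group's own positions they were 68.4% ± 0.119 in DMSO, 66.6% ± 0.219 in DBP, 69.3% ± 0.659 with the unnamed agent and 69.5% ± 0.407 with BR extract (n = 3 each, SD). An exact permutation test over the 4 groups gave p = 0.0013 there. Each group was averaged over different positions, so this p cannot tell treatment from the choice of positions. On these unequal sets DBP minus DMSO was -1.82 points, of the opposite sign to the shared set.

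Compared with the other classes of position, exonic CpGs were far above promoters and between introns and intergenic DNA. Averaged over the 12 samples, the level was 67.3% ± 0.603 at exonic positions, 72.5% ± 0.689 at 3751 intronic positions over 5000 bp from a start, 58.8% ± 0.570 at 6717 such intergenic positions and 10.4% ± 0.391 at 20158 positions within 1000 bp of a start (SD, n = 12 each). In all 12 samples the exonic level was below the intronic one and above the intergenic and the promoter level. The mean exonic minus intronic difference was -5.28 points, exonic minus intergenic 8.42 points and exonic minus promoter 56.9 points, each with p = 0.000488 in a two-sided exact sign-flip permutation test over 12 samples, the smallest p this test can give (0.000558 after adjustment over the 8 differences of this kind). These p-values speak of the 12 samples only, since positions of 1 sample are not replicates. The exonic minus intronic difference did not pass a test between groups: it differed by 0.0128 points between DBP and DMSO, by 0.174 between the unnamed agent and DBP and by 0.244 between BR extract and DBP (exact permutation p = 0.9, 0.7 and 0.7).

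**Figure D1:**
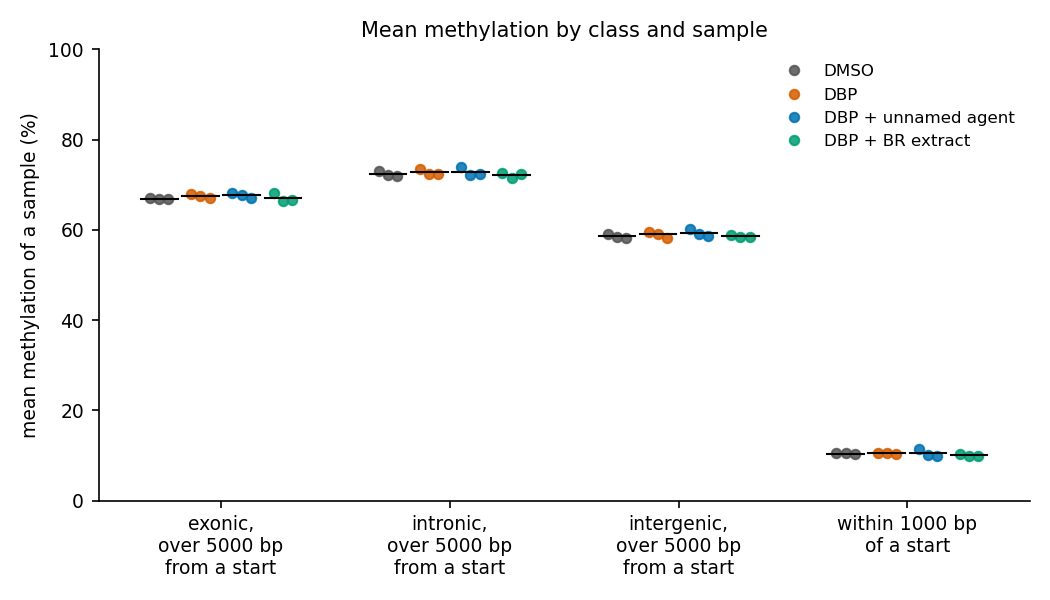
Mean methylation of each sample, in percent on a linear axis from 0 to 100, for exonic, intronic and intergenic positions over 5000 bp from a start and for positions within 1000 bp of a start. Each point is 1 sample, colours are the 4 groups and bars are group means; the 12 exonic points lie between 66.4% and 68.2%, below the intronic and above the intergenic points.

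The exonic level moved with local CpG density, and within bands of density the contrast with introns had the opposite sign. Density was counted as the CpGs of the mm9 reference within 100 bp on either side of a position, and was not used to choose the positions. The exonic level was 80.3% ± 0.829 with 0 to 4 CpGs and 82.7% ± 0.671 with 5 to 9, then dropped to 71.1% ± 0.642 with 10 to 14, 38.8% ± 1.74 with 15 to 19 and 13.1% ± 0.768 with 20 or more (SD, n = 12 each). Positions with 10 or more CpGs nearby differed from those with 4 or fewer by -32.4 points (exact sign-flip permutation p = 0.000488, adjusted 0.000558, lower in 12 of 12 samples).

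Exonic positions sat in denser sequence than intronic ones, with 43.4% of them against 8.21% in the range of 10 or more CpGs. Intergenic positions held 27.1% in that range and promoter positions 86.5%. Within each band of density the exonic level was the higher one in all 12 samples. It exceeded the intronic level by 2.80 points ± 0.635 with 0 to 4 CpGs, 10.6 ± 0.631 with 5 to 9, 17.5 ± 0.771 with 10 to 14, 8.70 ± 2.14 with 15 to 19 and 3.04 ± 1.59 with 20 or more (SD, n = 12 each). The last band rests on 279 exonic and 32 intronic positions. When positions were split only at 10 CpGs, a division added after the data had been seen, exons were 7.19 points higher with fewer CpGs and 1.96 points higher with 10 or more, less than in any of the 3 bands that this part covers (exact sign-flip permutation p = 0.000488 for both, adjusted 0.000684 and 0.00057 over 7 differences each). The exonic mean was thus the lower one over all positions and the higher one in every band.

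**Figure D2:**
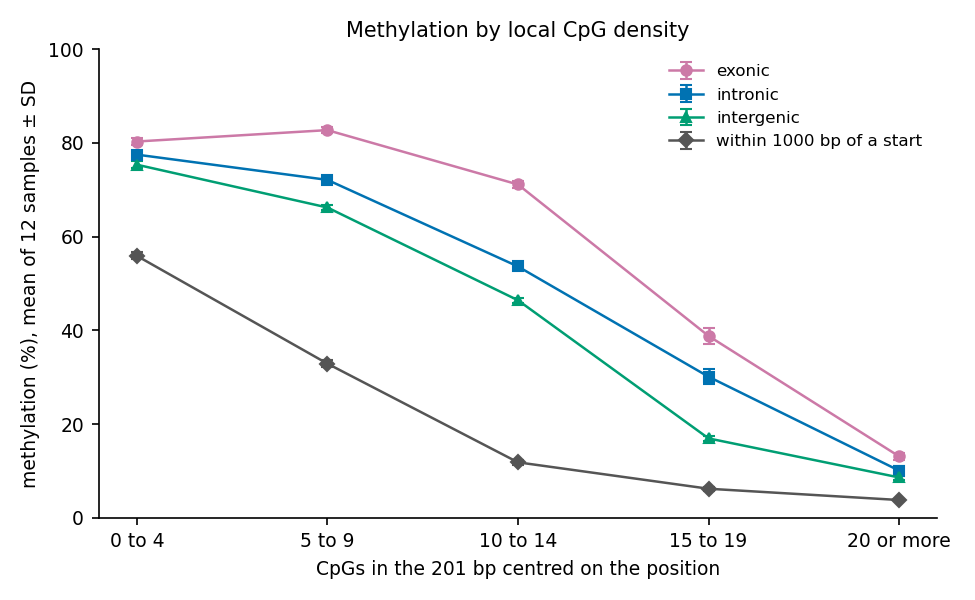
Methylation in percent against the number of CpGs within 100 bp on either side of a position, in 5 bands, for exonic, intronic, intergenic and promoter positions. Points are means of the 12 samples and bars their SD; exonic points run from 80.3% and 82.7% in the sparse bands to 13.1% in the densest and lie above the intronic points in every band.

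Levels differed with the place of a CpG within its gene. Coding positions of internal coding exons averaged 76.4% ± 0.680 (1084 positions), those of the last coding exon 51.3% ± 0.645 (546), those of the first coding exon 63.3% ± 1.26 (83) and those of genes with a single coding exon 56.0% ± 0.868 (86; SD, n = 12 samples each). The last coding exon differed from internal exons by -25.2 points and was lower in 12 of 12 samples (exact sign-flip permutation p = 0.000488, adjusted 0.000558). Density moved with this difference, at a mean of 14.9 CpGs within 100 bp for last and 9.39 for internal exons. Where fewer than 10 CpGs lay nearby the levels were 84.7% and 83.9%, so that last exons were 0.773 points higher (exact sign-flip permutation p = 0.000977, adjusted 0.00114), and with 10 or more CpGs they were 36.0% and 62.5%, a difference of -26.4 points (exact sign-flip permutation p = 0.000488, adjusted 0.00057). Split in this way, the lower level of last coding exons was seen at CpG-dense positions and not at the sparse shared ones. The split does not equalise density within the parts, so the dense difference is not one at equal density. At each group's own sparse positions last and internal exons were at 82.4% and 84.0% in DMSO and 83.6% and 83.0% in DBP. With the unnamed agent they were at 82.9% and 83.0%, and with BR extract both were at 83.3%.

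The length of the exon block followed the same pattern. Mean levels were 81.9% ± 0.787 in blocks of up to 200 bp, 68.97% ± 0.964 in longer blocks of up to 500 bp, 53.2% ± 0.814 in blocks of over 500 and up to 1000 bp and 63.1% ± 0.612 in longer ones (SD, n = 12). At positions with fewer than 10 CpGs these 4 levels lay between 80.5% and 83.6%, and at those with 10 or more they were 76.9%, 54.0%, 30.6% and 44.0%. By distance to the nearest start the mean was 60.6% ± 0.800 up to 10 kb, 71.6% ± 0.759 up to 20 kb, 68.1% ± 0.761 up to 50 kb and 77.0% ± 1.06 beyond 50 kb (SD, n = 12). The lowest of these bins is the one closest to promoters, but the order was not monotonic.

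The exon boundary itself showed a step on the intron side. Counting only positions with fewer than 10 CpGs nearby, introns averaged 75.6% ± 0.969 at over 100 and up to 200 bp from an exon, 76.0% ± 1.23 at 51 to 100 bp and 81.6% ± 1.12 within 50 bp (SD, n = 12). Exons averaged 82.9% ± 0.735 within 50 bp of their edge, 84.1% ± 1.09 at 51 to 100 bp, 82.6% ± 1.25 at over 100 and up to 200 bp and 82.9% ± 0.915 at over 200 and up to 500 bp. The intronic level at over 200 and up to 500 bp was 80.4% ± 0.908, so that the intronic side did not fall steadily with distance.

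In 3′ UTRs the level was 66.5% ± 0.875 (202 positions), against 67.4% ± 0.614 in coding sequence (1815 positions; SD, n = 12). The difference of -0.861 points had an exact sign-flip permutation p of 0.00439 (adjusted 0.00439), but it turned to 1.09 points at a minimum of 20 reads and to 3.08 points, over 3261 positions, when DMSO sample 3 was left out. Density differed here too, at a mean of 6.22 CpGs within 100 bp for the UTR and 11.4 for coding positions. With positions split at 10 CpGs, which does not equalise density within the parts, both differences were negative. With fewer than 10 CpGs the UTR level was 71.7% against 84.1% (a difference of -12.3 points, lower in 12 of 12 samples), and with 10 or more it was 32.6% against 48.6% (-16.0 points, lower in 12 of 12 samples), the latter over 27 UTR positions. Both had an exact sign-flip permutation p of 0.000488 (adjusted 0.000684 and 0.00057).

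A CpG in coding sequence can occupy codon bases 1 and 2, codon bases 2 and 3, or the join of neighbouring codons. The first kind is found in arginine codons, the second in codons such as those for serine, proline, threonine and alanine that end in CG, and the third joins any codon ending in C to one starting with G. Levels were 71.3% ± 0.701 (679 positions), 68.2% ± 0.545 (461) and 62.7% ± 0.818 (628; SD, n = 12 samples each). Bases 1 and 2 exceeded bases 2 and 3 by 3.03 points, and the join differed from bases 2 and 3 by -5.55 points, each in the same direction in 12 of 12 samples (exact sign-flip permutation p = 0.000488, adjusted 0.000558). With fewer than 10 CpGs nearby the corresponding differences were 1.78 and -1.17 points (exact sign-flip permutation p = 0.000488 and 0.00244, adjusted 0.000684 and 0.00244). With 10 or more CpGs they were -0.121 points (exact sign-flip permutation p = 0.694) and -6.47 points (p = 0.000488 in the same exact test). The arginine-codon difference was thus not detected at the dense shared positions. It was seen at each group's own dense positions, which are more numerous. There bases 1 and 2 were at 56.5% in DMSO, 56.4% in DBP, 58.9% with the unnamed agent and 59.97% with BR extract. Bases 2 and 3 were at 53.1%, 47.3%, 49.0% and 48.2% in the same order. The dense result therefore depended on the positions used.

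Most exon blocks were either low or high in methylation. Of 113 blocks with 5 or more shared positions, which held 761 positions, 39 had a mean below 20%, 51 above 80% and 23 in between. All 39 low blocks had 10 or more CpGs within 100 bp on average, with a mean of 21.4, and 28 of them were last or single coding exons. None of the 39 lay within 1000 bp of any annotated start, whatever its gene type, and their median distance to a protein-coding start was 9181 bp. Of the 51 high blocks 30 were as dense by that measure, their mean was 10.8 CpGs, and 35 were internal coding exons while 12 were last or single ones. The largest SD over the 12 samples was 12.5 points among low blocks and 7.57 points among high blocks.

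**Figure D3:**
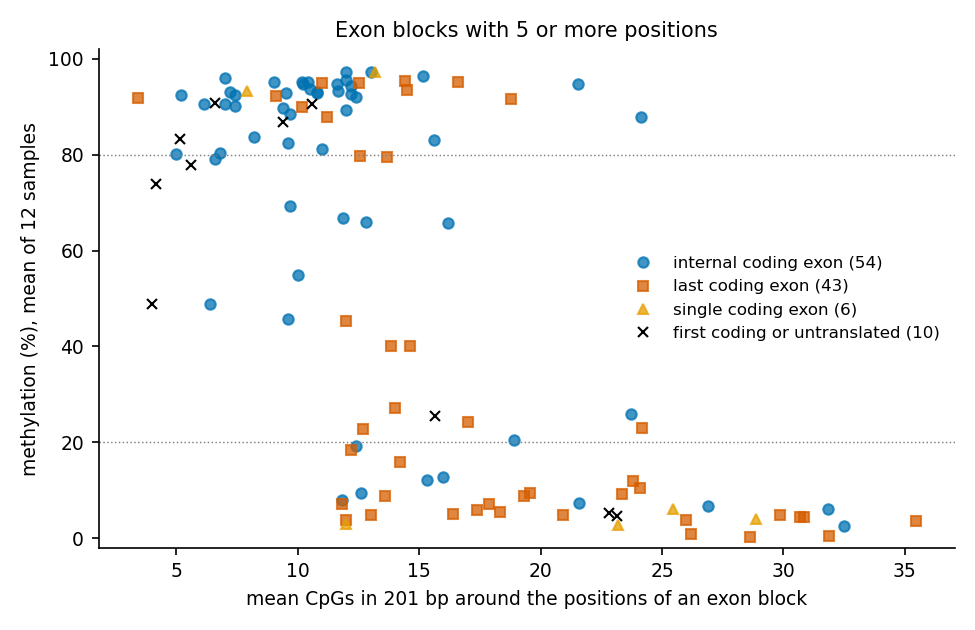
Mean methylation over 12 samples in percent against the mean number of CpGs within 100 bp of the positions, for the 113 exon blocks with 5 or more shared positions. Symbols give the place of the block in the coding sequence and dotted lines mark 20% and 80%; the 39 blocks below 20% lie to the right, mostly as last coding exons, and high blocks reach beyond 20 CpGs in 2 cases.

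The least methylated block was the last coding exon of Dapk3, a kinase that acts in cell death and in actin-myosin contraction (ENSMUSG00000034974, chr10:80655171-80655729). Its 8 positions averaged 0.379%, 0% and 0% in DMSO, 0%, 0% and 0.338% in DBP, 0%, 0% and 2.86% with the unnamed agent and 0.216%, 0% and 0% with BR extract. The single sample above 1% was sample 3 of the unnamed agent. In the last exon of Tbr1, a T-box transcription factor of the brain (chr2:61649640-61652171), 8 positions lay between 0% and 2.85% in the 12 samples with a mean of 0.509%. At a depth of 10 reads, a level of 0% at a single position still allows up to 30% (3 counts), and blocks are averages over 5 or more such positions.

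The other blocks among the 10 lowest averaged below 5%. The single coding exon of Gprin1, which acts in neurite outgrowth (chr13:54838032-54841974), had 15 positions at 3.76%, 3.41% and 3.62% in DMSO and 3.68%, 3.31% and 3.54% in DBP. It had 5.28%, 3.74% and 4.59% with the unnamed agent and 4.30%, 4.89% and 3.12% with BR extract. The 6 DMSO and DBP samples lay between 3.31% and 3.76%, and 4 of the 6 samples with an agent lay above all of them. The last exon of Nova2, a neuronal splicing regulator, had a mean of 3.87% (0.976% to 8.06%) and that of Otud7a, a deubiquitinase, 3.50% (1.19% to 5.19%). The remaining low blocks of this set were those of Vsig8 at 0.783%, an internal exon of Asb18 (chr1:91864788-91865295, 10 positions) at 2.48% with a range of 0.904% to 4.01%, Kbtbd11 at 2.77% and Msl3l2 at 3.06%.

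Tchh, which encodes trichohyalin, a structural protein of hair follicles and of papillae of the tongue, had low methylation in its last coding exon with only 12 CpGs within 100 bp on average (chr3:93247315-93252999, 5 positions). Levels were 5.07%, 3.38% and 7.87% in DMSO, 2.93%, 4.11% and 5.89% in DBP and 5.46%, 5.56% and 3.32% with the unnamed agent. They were 0.227%, 0.714% and 0.657% with BR extract, below all 9 other samples. Reads per position were high, with medians from 56 to 366 in the 12 samples.

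The most methylated blocks were the single coding exon of Fam50b, a gene that arose as a retrocopy of Fam50a, at 97.3% (94.5% to 99.3% over the 12 samples), and an internal exon of Ksr2, a scaffold of the Ras pathway, at 97.2% (93.4% to 99.0%). Internal exons of Cxadr, a tight junction receptor, Caskin1, a scaffold of synapses, and Odz4, a teneurin, averaged 97.2%, 96.5% and 96.0%. The 6 positions of the Caskin1 block had 93.6%, 93.9% and 95.1% in DMSO and 97.4%, 96.9% and 93.7% in DBP. It had 96.8%, 98.4% and 98.6% with the unnamed agent and 97.5%, 97.6% and 98.0% with BR extract, so that both agent groups lay above all DMSO samples while DBP overlapped with them. These highest blocks had 7 to 15.2 CpGs within 100 bp on average.

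Blocks near 50% varied more between samples. An internal exon of Car3, which encodes a carbonic anhydrase abundant in muscle and fat (chr3:14870042-14870197, 5 positions), had 59.6%, 53.3% and 62.1% in DMSO and 43.3%, 59.9% and 49.4% in DBP. It had 47.0%, 36.4% and 51.1% with the unnamed agent and 34.8%, 45.1% and 45.0% with BR extract. All 6 samples with an agent lay below the 3 DMSO samples, and the DBP samples overlapped with both. The last exon of Trpm1, an ion channel of melanocytes and retina, an internal exon of Nav2, a regulator of neuron outgrowth, and a UTR block of Slco2a1, a prostaglandin transporter, averaged 45.3%, 45.8% and 48.8%, with SDs of 6.40, 8.32 and 11.7 points over the 12 samples. Blocks in this and the preceding paragraphs were picked by their level, so their order is a description without a test.

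**Figure D4:**
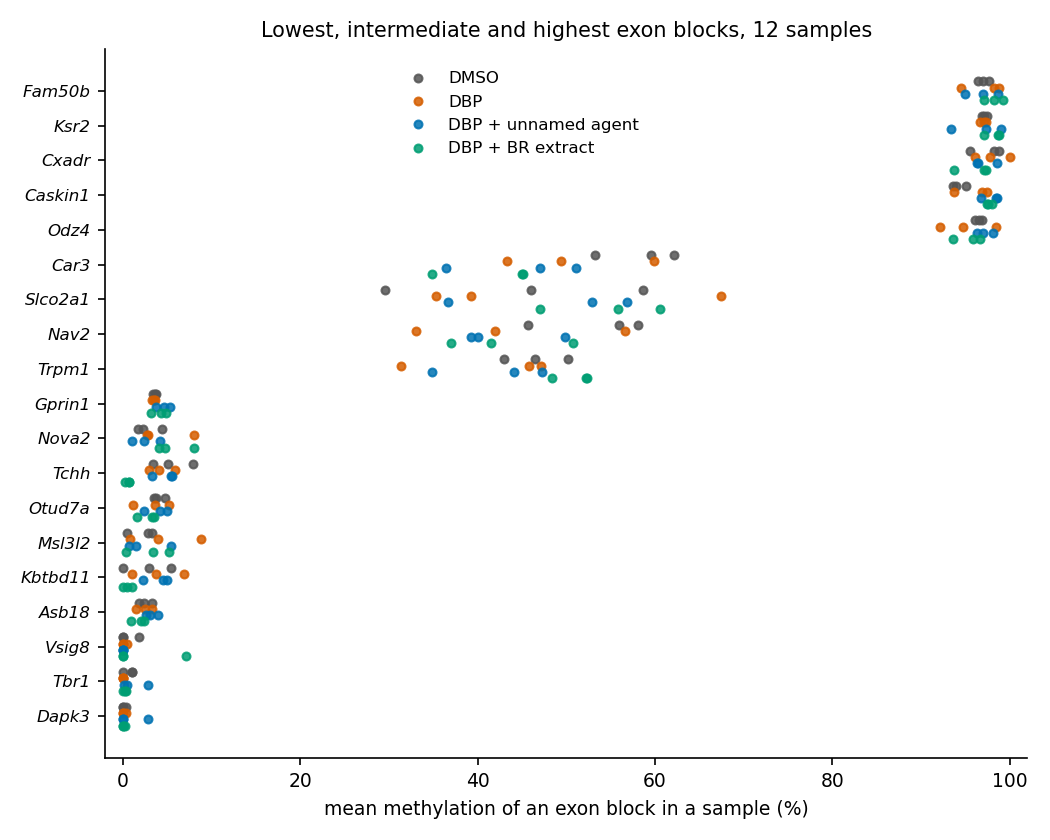
Mean methylation of each of 19 exon blocks in each of the 12 samples, in percent; each row is a block named for its gene, each point a sample and each colour a group. The 10 lowest and 5 highest blocks have points within 10 points of each other in every case, whereas the 4 blocks near 50% spread over 20 points or more; the 3 BR extract samples of Tchh sit at the left edge of its row.

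Among the 10 genes with most shared positions, levels again split by density. Kcnk12, a tandem-pore potassium channel, had 18 positions at 4.46% (0.942% to 9.26% over the 12 samples) and Ptprs, a receptor tyrosine phosphatase, 18 at 6.12% (2.18% to 9.35%). Scrt2, a zinc finger transcription factor of neurons, had 15 at 4.52% and Gprin1 15 at 3.94%. Intermediate levels were found in Asb18 with 14 positions in 2 blocks at 22.2%, Cilp2, a cartilage matrix protein, with 17 at 23.0%, Srcin1, an inhibitor of Src, with 14 at 25.9% (16.7% to 38.1%), and Kcnn4, a calcium-activated potassium channel, with 13 at 36.5% (25.9% to 45.7%). Notch3, a receptor of the Notch pathway, had 13 positions at 56.1% (47.8% to 62.7%) and Wnt4, a secreted Wnt ligand, 13 at 93.3% (90.4% to 96.6%). The first 4 of these genes had 28.9 to 31.8 CpGs within 100 bp on average, and Notch3 and Wnt4 had 11.6 and 11.7.

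Gene groups were described by the mean of each gene with at least 1 shared position. Over all 686 genes the median gene level was 87.3%, with 59 genes below 20% and 461 above 80%. Genes of squamous epithelium and its desmosomes had a median of 92.9% (7 genes, 28 positions, 0 below 20% and 6 above 80%). Examples are the plakin and desmosomal linkers Evpl at 92.4% over 11 positions, Dsp at 92.9% over 6, Dst at 90.7% over 5 and Ppl at 95.9% over 3. Sarcomere genes of striated muscle had a median of 88.8% (8 genes, 27 positions, 0 below 20% and 7 above 80%), with Myo18b at 89.5% over 9 positions, Myh3 at 82.5% and Nrap at 70.0%. Collagens had 87.4% (10 genes, 28 positions, 0 and 8), with Col6a2 at 92.7% and Col18a1 at 73.2%. At the shared positions no gene of these 3 lists was below 20%. The sarcomere level depended on the positions used. Averaged over positions it was 85.7% at the 27 shared ones and 82.996% at the 55 of the DMSO group's own set. On their own sets it was 66.96% in DBP (98 positions), 68.7% with the unnamed agent (259) and 72.2% with BR extract (142). Own-set means were 82.6% to 88.1% for the squamous list and 81.3% to 84.6% for collagens.

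Medians of the other lists lay between 31.9% and 89.97%. The 21 zinc finger genes had a median of 86.7%, with 2 below 20% and 17 above 80%, and spanned Zfhx2 at 7.95% and Zfp775 at 95.3%. The 4 homeobox and patterning factors had a median of 31.9%, made up of Lhx5 at 0.862% over 1 position, Tbx2 at 17.1% over 10 (9.44% to 30.05% in the samples), Foxp1 at 46.7% over 2 and Pax7 at 81.6% over 2. Genes of the cadherin superfamily had a median of 85.5% (8 genes, 2 below 20% and 5 above 80%), with Cdh22 at 12.0% and Cdh6 at 89.7%. Ion channel genes, taken by symbol patterns that also include channels not gated by voltage, had a median of 81.5% (9 genes, 3 below 20% and 5 above 80%). Averaged over positions, the ion channel level was 34.9% at the 50 shared ones, of which Kcnk12 held 18 and Kcnn4 13. On the groups' own sets it was 52.1% to 62.6%. The cadherin level averaged 57.5% over 19 shared positions and 51.97% to 69.8% on own sets. The 5 chromatin regulators had a median of 89.97%, all above 80%, the semaphorin Sema5b had 89.8% over 8 positions, and 3 genes recurrently mutated in oral cancer had a median of 73.0%. Most of these lists hold few genes, and no list was tested.

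The spread of single positions over low, middle and high levels was described at the 2052 shared positions. On average 18.5% ± 0.663 of positions were below 20%, 26.3% ± 1.36 between 20% and 80% and 55.2% ± 1.43 above 80% (SD, n = 12). Such shares depend on read depth, so they were also taken from 10 reads drawn at random per position and sample, which gave 17.4%, 34.3% and 48.3%. By group, the share below 20% was 18.6% ± 0.244 in DMSO, 17.7% ± 0.394 in DBP, 18.7% ± 0.801 with the unnamed agent and 19.04% ± 0.394 with BR extract (SD, n = 3). The DBP samples did not overlap with the DMSO samples or with the BR extract samples in this share. DBP minus DMSO was -0.893 points and BR extract minus DBP 1.32 points (exact permutation p = 0.1 each, the smallest p possible, and 0.3 after adjustment over the 9 differences of this kind). With 10 reads drawn these were -0.910 and 1.49 points (exact permutation p = 0.1 each, adjusted 0.225). The share between 20% and 80% differed by -2.31 points between the unnamed agent and DBP (exact permutation p = 0.1, adjusted 0.3), and by -3.77 points with 10 reads drawn (exact permutation p = 0.1, adjusted 0.225).

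At single CpGs, a test on pooled reads called 1 exonic position between DBP and DMSO and more between each agent group and DBP. CpGs were tested on methylated and unmethylated reads by logistic regression over all CpGs of the genome, with strands merged, and called at a q-value below 0.01 and a difference of pooled percentages over 25 points. DBP against DMSO gave 1 call among 2941 exonic CpGs, against 0.0578% of 53618 CpGs called genome-wide. The unnamed agent against DBP gave 73 calls among 6622 exonic CpGs (1.1%, against 0.754% called of 127382 CpGs genome-wide), of which 27 were higher and 46 lower with the agent, against 0.345% and 0.408% genome-wide. BR extract against DBP gave 82 among 5318 (1.54%, against 0.999% of 104443 genome-wide), 29 higher and 53 lower, against 0.341% and 0.658% genome-wide. Leaving out 1 sample raised these counts, to between 84 (without agent sample 3) and 165 (without agent sample 1) for the unnamed agent and between 138 (without DBP sample 2 or BR extract sample 2) and 185 (without BR extract sample 3) for BR extract. The largest of these were 2.49% and 3.47% of exonic CpGs, against 1.75% and 2.18% genome-wide. The calls lay in 64 and 71 genes, and 56 of the 73 and 65 of the 82 were in coding sequence. Of the shared autosomal positions, 54.2% lay within 1000 bp of a start, at a mean level of 10.4%. Exonic and genome-wide shares, here and below, therefore compare CpGs of unlike level. Whether exonic CpGs differed more often than other CpGs of the same level was not tested.

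This test takes no account of the spread between samples, and a negative binomial model in edgeR that does called 0, 1 and 0 exonic CpGs in the same 3 comparisons, at a q-value below 0.01 and the same difference. Genome-wide it called 0%, 0.00236% and 0% of the CpGs tested. Its unadjusted p was below 0.05 at 237, 581 and 532 exonic CpGs, or 8.06%, 8.77% and 10.004% of them, against 5.44%, 5.23% and 5.81% of all CpGs. Of the calls of the logistic model, 48 of 73 and 62 of 82 had groups of samples that did not overlap. Over all CpGs tested, groups did not overlap at 5.49% for the unnamed agent and 5.69% for BR extract, and at exonic CpGs at 9.35% and 9.63%. At the 10 point difference the exonic calls were 3, 560 and 728, against 0.106%, 5.32% and 8.64% genome-wide, and at a q-value below 0.05 and 25 points DBP against DMSO gave 13, against 0.269%.

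The exonic CpG called between DBP and DMSO lay in the 3′ UTR of Ptpn14, a tyrosine phosphatase that restrains the transcriptional coactivator YAP (chr1:191697657-191697658, 8593 bp from the nearest start). DMSO samples had 94.4%, 96.6% and 75.0% over 18, 29 and 16 reads, and DBP samples 52.9%, 72% and 47.2% over 17, 25 and 36 reads. The groups did not overlap, although the 95% Wilson intervals of the highest DBP sample (52.4% to 85.7%) reached past the lowest DMSO value. With the unnamed agent the values were 66.0%, 61.1% and 87.0%, and with BR extract 77.5%, 78.7% and 66.4%. The pooled difference of DBP from DMSO was -34.3 points, at q = 0.00389 in the logistic model and q = 0.572 in edgeR, and the call was lost without DBP sample 1, without DBP sample 3, without DMSO sample 1 and without DMSO sample 2. Neighbouring CpGs 16 and 35 bp away differed by -10.5 and -17.1 points between the means of the groups. Intervals and limits at 0% cover counting error only, since copies made by PCR without molecular identifiers are not independent molecules.

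Higher methylation with an agent was found at a CpG in the 3′ UTR of Wars, which encodes tryptophanyl-tRNA synthetase (chr12:110098600-110098601). DBP samples had 73.5%, 81.2% and 64.7% over 32 to 34 reads, all 3 samples with the unnamed agent had 100% over 71, 39 and 70 reads, and BR extract samples had 100%, 100% and 96.8% over 67, 66 and 63 reads. The 2 DMSO samples with 10 or more reads had 96.7% and 87.0%, so DBP was the lowest group here. The pooled difference from DBP was 27.3 points for the unnamed agent (edgeR q = 0.00971) and 25.9 points for BR extract (edgeR q = 0.0724). The first was the only exonic call that edgeR made, and without DBP sample 3 the differences were 23.4 and 21.5 points and not called. The CpG 26 bp upstream on the chromosome differed by 10.3 points with the unnamed agent and by -6.55 points with BR extract.

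With BR extract, the CpG with the smallest p lay in the coding sequence of Rai1, a transcriptional regulator first found as retinoic acid induced (chr11:59999755-59999756, the first coding exon). BR extract samples had 100%, 100% and 96.1% over 11, 55 and 77 reads, and DBP samples 61.5%, 52.4% and 66.7% over 26, 21 and 18 reads. DMSO samples had 77.8%, 92.3% and 88.2%, and samples with the unnamed agent 82.5%, 53.8% and 100%. The pooled difference from DBP was 38.0 points (logistic q = 3.27e-21 on scaled counts, edgeR q = 0.0724). BR extract and DBP did not overlap, the interval of the sample with 11 reads began at 74.1%, and the unnamed agent spanned both.

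A CpG in an internal exon of Adamtsl3, a secreted matrix protein, was lower with BR extract than in every other group (chr7:89705400-89705401). BR extract samples had 20%, 13.2% and 15.8% over 20, 53 and 19 reads and DBP samples 64.3%, 50.0% and 81.0% over 14, 20 and 21 reads. DMSO samples had 73.9%, 71.4% and 51.7%, and samples with the unnamed agent 66.7%, 50.0% and 60.3%. The pooled difference from DBP was -51.3 points (edgeR q = 0.289), and CpGs 11 and 15 bp away differed by -23.8 and -19.7 points, while one 24 bp away on the other side differed by -3.40 points. In Def6, a guanine nucleotide exchange factor of lymphocytes (chr17:28360934-28360935, internal exon), BR extract samples had 75.5%, 50.7% and 35.4% and DBP samples 18.8%, 0% and 10.8%, a pooled difference of 36.9 points (edgeR q = 0.267). The 2 DMSO samples with 10 or more reads had 31.5% and 43.5%.

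Kcnn4 held 2 of the 10 BR extract calls with the smallest p, 11 bp apart in an internal exon with 22 or more CpGs within 100 bp. At chr7:25162489-25162490, BR extract samples had 4.17%, 0% and 0% over 24, 48 and 94 reads and DBP samples 36.8%, 33.3% and 5.56% over 19, 27 and 18 reads, with a pooled difference of -26.5 points (edgeR q = 0.127). DMSO samples had 6.90%, 0% and 26.7% and samples with the unnamed agent 3.38%, 28.0% and 17.1%, so these groups overlapped with both. The 4 CpGs measured within 60 bp, the other call among them, differed by -35.1 to -13.7 points in the group means. The call was lost without DBP sample 1, at -22.2 points, and without DBP sample 2, at -21.7 points.

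The other calls of this comparison among the 10 were higher in Mdfi, an inhibitor of MyoD family factors (30.9 points), and Spnb4, a spectrin of axons (39.5 points), and lower in Cit, a kinase of cell division (-40.4 points), and the 3′ UTR of Itgb5, an integrin subunit (-36.5 points). In Mdfi all BR extract samples had 100%, as did 1 of the DBP samples, and without DBP sample 3 the difference was 15.6 points and not called. In Spnb4 all DBP samples had 0% and BR extract samples 0%, 40.9% and 64.3%, so that the groups shared a value, and the 5 CpGs within 33 bp differed by 0 to 7.14 points. In Cit the 4 CpGs within 47 bp differed by -2.40 to 5.81 points, and in Itgb5 both neighbours within 27 bp differed, by -18.1 and -18.9 points. Whether the CpGs around a call moved with it therefore varied from gene to gene.

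With the unnamed agent, coding CpGs in the last exons of Lrfn3, a synaptic adhesion molecule, and Fosb, a subunit of the AP-1 transcription factor, were higher than in DBP. In Lrfn3 (chr7:31140978-31140979) agent samples had 90.4%, 100% and 85.6% over 135, 62 and 132 reads and DBP samples 56.0%, 48.0% and 35.7% over 25, 25 and 14 reads, a pooled difference of 41.1 points (edgeR q = 0.186). BR extract samples there had 0%, 50.0% and 96.6%, the whole range, and the 6 CpGs within 45 bp differed by -7.81 to 10.3 points between the unnamed agent and DBP. In Fosb (chr7:19890280-19890281) agent samples had 58.4%, 62.5% and 81.8% and DBP samples 28.6%, 7.69% and 8.0% over 14, 13 and 25 reads, a pooled difference of 50.5 points (edgeR q = 0.286), while CpGs 18, 30 and 44 bp away differed by 20.2, 6.79 and -2.08 points.

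A CpG in the 3′ UTR of H13, which encodes signal peptide peptidase, was lower with the unnamed agent (chr2:152533348-152533349), at 2.44%, 2.04% and 0% over 82, 49 and 31 reads against 33.3%, 27.8% and 20% over 21, 18 and 10 reads in DBP. BR extract samples had 9.30%, 0% and 0%, and the 2 DMSO samples with 10 or more reads 0% and 17.6%. The pooled difference was -27.9 points (edgeR q = 0.270), CpGs 32 bp before and 3 bp after it differed by -23.6 and -21.9 points, and the difference was -24.3 points and not called without DBP sample 1. Other calls among the 10 were Lingo3 (50.2 points), a neuronal membrane protein, and Olfm2 (28.5 points), which were higher, and Slc13a2 (-46.7 points), a carrier of dicarboxylates, Ezr (-30.8 points), ezrin of the cell cortex, and Pard6b (-25.8 points), a cell polarity protein, which were lower. Of these, Olfm2 had 4.57 points without DBP sample 1, which stood apart at 37.0% against 100% and 78.6%, and was then not called. Ezr was not called without DBP sample 1, at -24.4 points. Pard6b was not called without DBP sample 1 or 2, at -19.4 and -24.5 points, nor without agent sample 2 or 3, at -21.7 and -22.4 points.

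**Figure D5:**
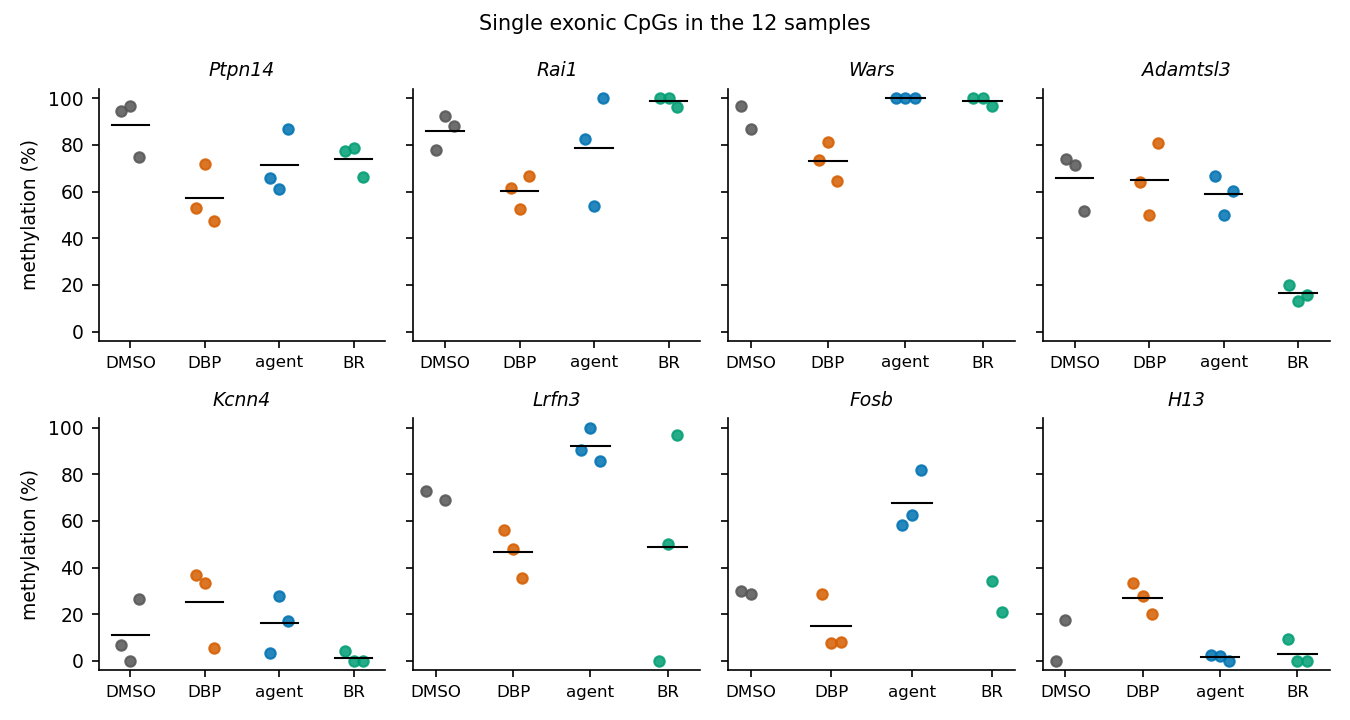
Methylation of 8 of the called exonic CpGs in percent (0 to 100) in every sample with 10 or more reads, by group; agent is DBP with the unnamed agent and BR is DBP with BR extract. Bars are the means of groups with all 3 samples; the 3 BR extract points of Adamtsl3 lie at 13.2% to 20%, below the other 9, and those of Lrfn3 spread from 0% to 96.6%.

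Summing reads over exon segments raised the depth and gave no call at an adjusted p below 0.05. Of 2185 exon segments with 3 or more positions, 320 were far from a start, and limma on the log2 ratio of methylated to unmethylated reads called 0 of these 320 in each of the 3 comparisons. Of all segments it called 0%, 0.0458% and 0%, and at an unadjusted p below 0.05 it found 12, 19 and 20 exonic ones, against 1.97%, 9.89% and 9.47% of all segments. By edgeR, a model of single CpGs, the calls were those given above. The segment with the smallest adjusted p was the Tchh block with BR extract against DBP, at -2.84 ± 0.520 (SE) on the log2 scale and an adjusted p of 0.0612 in limma. The next was a 3 position segment of Kcnn4 (chr7:25167491-25167560) at -2.03 ± 0.493 (SE) and an adjusted limma p of 0.168.

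The spread between samples of a group was set beside the error expected from counting reads. At the shared exonic positions the SD between the 3 samples of a group, as a root mean square over positions, was 9.35 points in DMSO, 8.47 in DBP, 9.70 with the unnamed agent and 12.0 with BR extract. Counting error alone would give 7.02, 6.42, 3.72 and 4.75 points, less in the deeper agent libraries, and the ratios, which move with depth for that reason, were 1.33, 1.32, 2.60 and 2.53. Intronic positions gave 1.28, 1.26, 2.40 and 2.43 and promoter positions 1.27, 1.27, 2.64 and 2.41, so the ratio was higher in the agent groups at these positions too. The source of this spread was not tested.

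Levels of exonic CpGs in the same block were compared in pairs. In DMSO samples the median absolute difference between the mean levels of a pair was 4.06 points at 2 to 20 bp (2687 pairs), 6.39 points at 21 to 50 bp and 7.83 points at 51 to 100 bp (81 pairs). It was 3.37 points at over 100 and up to 200 bp (949 pairs), 7.25 points up to 500 bp and 20.6 points up to 2000 bp (299 pairs), so it did not rise steadily with distance. With the unnamed agent, where more positions were covered, it was 4.61 points at 2 to 20 bp (14304 pairs), 4.04 to 6.48 points in the 4 bins between 21 and 500 bp, and 10.1 points at over 500 and up to 2000 bp (11957 pairs). Pairs of the same exon share reads and sequence, so these values describe the exons and are not replicates.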

How the data were processed

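Per the labels, the authors used Trim Galore 0.3.3 for trimming and Bismark 0.10.1, on the mm9 build, for alignment and methylation calls. For every covered CpG cytosine they deposited counts of methylated and unmethylated reads, unnormalised, and the percent methylated. The deposited percent equalled that computed from the counts within rounding. A thymine allele and an unmethylated cytosine read alike, and duplicate reads cannot be recognised.

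Positions were placed on GENCODE vM1. Positions, gene lists and tests were chosen with earlier results of these data known. A level is the mean percent over positions with 10 or more reads. Exact permutation tests, all two-sided, compared levels. Single CpGs followed the settings of the study: coverage below the 99.9th percentile, coverage scaled, strands merged, logistic regression, Benjamini-Hochberg over all CpGs, and edgeR 4.0.16 as an alternative. Exon segments were tested with limma 3.58.1 on log2 ratios with 1 read added. Named were the 10 calls with the smallest p per comparison, the lowest 10, highest 5 and middle 5 blocks, the 10 genes with most positions, and up to 4 genes per list by positions. A few named items are not reported here. Python 3.11.15 and R 4.3.3 were used, and tests were checked on simulated data. For single CpGs the simulated reads varied by counting error only, so that check did not cover spread between samples. Replicate numbers did not pair the samples.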

Additional observations from a re-analysis of the deposited data

How the results depend on the processing

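Of 399 alternatives to 21 results, 338 counted as unchanged. For levels this meant the same direction and side of the threshold, and for numbers of calls an equal or similar number. Comparisons of a level between DBP and DMSO, or between an agent and DBP, could not pass the threshold with so few samples. Only their direction could change. Split at 10 CpGs within 100 bp, the exonic minus intronic difference reversed, to 7.19 points below and 1.96 points above, and last minus internal coding exons became 0.773 points below; both splits were added after seeing the data. The 3′ UTR minus coding difference reversed to 1.09 points with 20 reads and 0.554 points with pooled reads. For exonic levels, DBP minus DMSO was -1.82 points on each group's own positions, the unnamed agent minus DBP -0.850 points with pooled reads, and BR extract minus DBP 0.231 points with 20 reads, 1.83 with pooled reads and 2.97 on own positions; the 4-group sum of squares was 16.5 on own positions. The small change of the exonic minus intronic difference between DBP and DMSO became -0.109 points with 5 reads, -0.157 with 20 reads, -0.0997 with 1 start per gene, -0.0439 beyond 2000 bp, -0.0176 under the upper coverage limit, -0.00592 with strands merged, -0.159 on own positions and -0.929 at dense positions. That between the unnamed agent and DBP became -0.00335 with 1 start per gene and -0.0229 beyond 10000 bp. The cause of these changes was not tested.

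Exonic CpG calls for DBP against DMSO numbered 3 over 10 points, 13 at q below 0.05, 0 with 5 reads, 0 with 20 reads and 0 in edgeR. The first 2 were 0.102% and 0.442% of exonic CpGs, against 0.106% and 0.269% of all. With 5 and 20 reads, 0.0181% and 0.103% of all CpGs were called. The unnamed agent gave 560 over 10 points, 289 with 5 reads, 6 with 20 reads, 42 without coverage scaling and 1 in edgeR, the first 4 being 8.46%, 2.13%, 0.303% and 0.634% of exonic CpGs, against 5.32%, 1.51%, 0.276% and 0.416% of all. BR extract gave 728, 271 and 10, or 13.7%, 2.38% and 0.730%, against 8.64%, 1.62% and 0.460% of all, and 0 in edgeR. For BR extract, 1 of 113 exonic segments with 5 or more positions was called, against 2 of all 1214. At an adjusted limma p below 0.1 it was 1 of 320, against 3 of all 2185.

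Leaving out 1 sample also changes which positions are tested. Calls ranged from 1 to 5 for DBP against DMSO (5 without DMSO sample 1, 2 without DMSO samples 2 or 3, 3 without DBP sample 2). For the unnamed agent they ranged from 84 to 165 (123, 149 and 133 without DBP samples 1, 2 and 3; 165, 134 and 84 without agent samples 1, 2 and 3). For BR extract they ranged from 138 to 185 (152, 138 and 151 without DBP samples 1, 2 and 3; 165, 138 and 185 without BR extract samples 1, 2 and 3). For DBP against DMSO these calls were 0.0311% to 0.166% of exonic CpGs, against 0.0224% to 0.131% of all. In the fits of the unnamed agent and BR extract the calls were 1.22% to 2.49% and 2.35% to 3.47% of exonic CpGs, against 0.941% to 1.75% and 1.496% to 2.18% of all. Level differences ranged from 0.321 to 0.717 points for DBP minus DMSO, -0.0718 to 0.509 for the unnamed agent minus DBP and -0.935 to -0.0815 for BR extract minus DBP, and the 4-group sum of squares from 0.535 to 1.79. Exonic minus intronic ranged from -5.71 to -3.90 points, and its group changes from -0.258 to 0.256, -0.132 to 0.439 and -0.144 to 0.543 in the same order. Exonic minus intergenic ranged from 7.91 to 8.71 points, minus promoter from 56.0 to 57.2, 3′ UTR minus coding from -4.50 to 3.08, last minus internal exon from -26.2 to -24.2, dense minus sparse from -34.7 to -31.5, and the codon differences from 2.51 to 6.62 and from -6.05 to -3.64. No segment was called without 1 sample.

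Correlations of deviations between same-numbered samples lay between -0.0212 and 0.00995, so the numbers were not taken as pairs. With a replicate block the calls were 1, 71 and 81, or 0.0340%, 1.07% and 1.52% of exonic CpGs, against 0.0597%, 0.733% and 0.982% of all. With that block segment calls stayed at 0, and the 3 level differences of 0.510, 0.218 and -0.418 points had exact permutation p of 0.25, 0.25 and 0.5, where 0.25 is the smallest possible.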
